A study of Mus musculus with 32 samples.

Results

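The 4 MapR libraries made with the R-loop probe, 2 from H1-TKO and 2 from wild-type (WT) mouse embryonic stem cells, were compared by the width, strength, summit position and gene coverage of their peaks. They are 4 of the 32 samples of the series. H1-TKO is labelled as a triple knockout of linker histone H1. The labels do not name the deleted genes or say how the line was made or whether it is a clone. Both genotypes were grown with serum and leukaemia inhibitory factor, and all 4 libraries received GST-RH-MNase (RNH), a micrococcal nuclease fused to an RNase H that binds RNA-DNA hybrids. Released fragments of 200 to 1000 bp were sequenced. A control library with GST-MNase alone was made for each genotype, and peaks that met a control peak were left out below. Nothing in the labels says that replicates came from separate cultures, so the tests measure only the spread between these libraries, which may be technical.

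R-loops form where nascent RNA pairs with its template and leaves the other DNA strand single. They are known to gather at CpG-rich promoters, at stretches with more G than C on the coding strand, and at strongly transcribed genes. Linker histone H1 binds the nucleosome where DNA enters and leaves, and compacts chromatin.

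Outside the controls the lists held 24937 and 6010 peaks in TKO replicates 1 and 2, and 21929 and 6166 in WT. Peaks that overlapped by at least 1 bp were merged into 35625 regions. The largest classes were regions found in TKO replicate 1 alone (9796, 27.5%), in both replicates 1 alone (9179, 25.8%) and in WT replicate 1 alone (6742, 18.9%). By contrast, 432 regions (1.21%) were found in both TKO libraries and no WT library, and 449 (1.26%) in both WT and no TKO library. Both replicates 2 alone held 167 regions (0.469%). A peak of each of the 4 libraries was present in 1610 regions (4.52%), called matched regions here. Of these, 1155 (71.7%) lay within 1 kb of the start of a coding gene, 173 in introns, 44 in exons, 23 at the edges of other genes and 215 between genes. Over 300 bases at the summit their median G+C content was 64.0%. The median ratio of observed to expected CpG was 0.71, which is high for mouse DNA and usual at CpG islands. A region can be matched only where the 2 shorter lists, both replicate 2, hold a peak.

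Sequences are given for 4 matched regions on which the results turn. They are the intronic regions of Stau2 and Pkp4, among the 5 with the highest mean fold enrichment, and the regions with the largest higher and lower fold enrichment in TKO, at the Pgk1 promoter and in an intergenic part of chromosome X. Each is the mm10 reference around the median summit, 5′ to 3′ on the strand of the gene (on the plus strand for the intergenic one), and runs of 4 or more G or C are in capitals. The spans are chr1:16342852-16343151 (minus strand), chr2:59252885-59253184, chrX:106186782-106187081 and chrX:116932306-116932605 (plus strand for these 3).
Stau2 intron: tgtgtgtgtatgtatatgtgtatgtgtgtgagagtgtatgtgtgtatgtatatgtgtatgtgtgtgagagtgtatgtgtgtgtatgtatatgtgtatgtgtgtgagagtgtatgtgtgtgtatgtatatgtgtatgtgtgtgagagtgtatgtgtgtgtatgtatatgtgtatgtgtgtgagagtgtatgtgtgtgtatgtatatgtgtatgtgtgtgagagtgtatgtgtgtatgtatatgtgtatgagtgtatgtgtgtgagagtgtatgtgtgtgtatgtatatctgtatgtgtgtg
Pkp4 intron: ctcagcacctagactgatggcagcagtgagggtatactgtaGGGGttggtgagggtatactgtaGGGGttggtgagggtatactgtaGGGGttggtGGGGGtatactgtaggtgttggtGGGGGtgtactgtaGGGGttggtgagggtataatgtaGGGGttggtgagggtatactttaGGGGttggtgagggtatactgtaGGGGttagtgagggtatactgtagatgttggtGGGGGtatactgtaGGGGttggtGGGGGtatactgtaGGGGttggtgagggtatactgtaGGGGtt
Pgk1 promoter: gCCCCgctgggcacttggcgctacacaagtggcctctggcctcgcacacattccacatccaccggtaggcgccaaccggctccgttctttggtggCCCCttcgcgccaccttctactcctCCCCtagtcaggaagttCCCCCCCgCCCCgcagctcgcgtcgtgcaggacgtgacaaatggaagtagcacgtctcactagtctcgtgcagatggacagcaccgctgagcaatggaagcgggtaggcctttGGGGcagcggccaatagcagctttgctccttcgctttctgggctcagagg
Chromosome X intergenic: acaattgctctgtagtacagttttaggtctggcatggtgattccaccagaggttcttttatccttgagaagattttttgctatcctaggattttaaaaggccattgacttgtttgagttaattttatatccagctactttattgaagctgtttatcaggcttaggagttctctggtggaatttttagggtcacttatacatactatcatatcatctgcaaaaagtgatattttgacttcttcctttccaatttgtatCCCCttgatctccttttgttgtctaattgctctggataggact
The Stau2 stretch has 94 TG steps, 109 G and 1 C on the coding strand, and it too is masked as repeat (100%). The Pkp4 stretch has 137 G and 19 C and 14 runs of at least 4 G. The Pgk1 stretch ends upstream of the annotated start and holds 21 CpG, with 105 C and 83 G. The intergenic stretch holds 0 CpG, its G+C content is 36.0%, and all its bases are masked as repeat in the reference (100%). The motif GGGG, searched on both strands, occurred in 97% of the 1610 summit windows and in 86.4% of 32851 RefSeq promoters of the same length (GRCm38.p6).

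With the full peak lists, peak strength in matched regions differed more between replicates than between genotypes. The measure is the peak caller's fold enrichment of a peak over its local background. Its median over the 1610 regions was 4.12 and 4.84 in TKO replicates 1 and 2 and 4.21 and 4.52 in WT. The replicate 2 libraries were the higher pair in both genotypes, and the TKO and WT values overlap. The difference of log2 medians was 0.03 (exact permutation test, two-sided, p = 1). With 2 libraries per genotype this test cannot give a p below 0.33. Among all peaks, matched or not, the medians were 3.80 and 4.63 in TKO and 3.73 and 4.28 in WT, a log2 difference of 0.07 (exact permutation test, p = 0.67). Without TKO replicate 2 the matched difference turned to -0.035, and without WT replicate 1 to -0.024. With the lists cut to equal length, the matched medians were 4.73 and 4.90 in TKO and 4.69 and 4.65 in WT. These groups do not overlap (exact permutation test, p = 0.33). Over all peaks replicate 1 was then the higher library, with 4.97 and 4.63 in TKO and 4.71 and 4.31 in WT.

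Region by region, limma was fitted to the log2 fold enrichment of all 1610 matched regions, with each library centred on its own median. Genotype was the only term, so differences between replicates of a genotype entered the error. No region passed an adjusted p of 0.05 in either direction (0 higher and 0 lower, 0% of regions). At an unadjusted p under 0.05, 14 regions were higher (0.87%) and 12 lower (0.745%). The middle 95% of the log2 TKO over WT differences lay between -0.38 and 0.40, with a median standard error of 0.23. Both TKO libraries exceeded both WT libraries in 231 regions (14.3%) and fell short of both in 206 (12.8%). With 2 libraries per genotype such orders also arise by chance in a share of regions, so these counts are a description and not calls. With values not centred these counts were 227 and 121, so that 65.2% of non-overlapping regions were on the higher side in place of 52.9%.

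The genotype differences of the 2 replicates were barely related across regions. They share no library. Across the 1610 regions Pearson's r between them was 0.06 for fold enrichment, and the sign was the same in 51.4% of regions. For width r was 0.05, with the same sign in 51.9%. Fold enrichment differed by more than 0.5 on the log2 scale in 96 regions in replicate 1 and in 152 in replicate 2. Of these, 5 were higher and 2 lower in both.

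**Figure D1:**
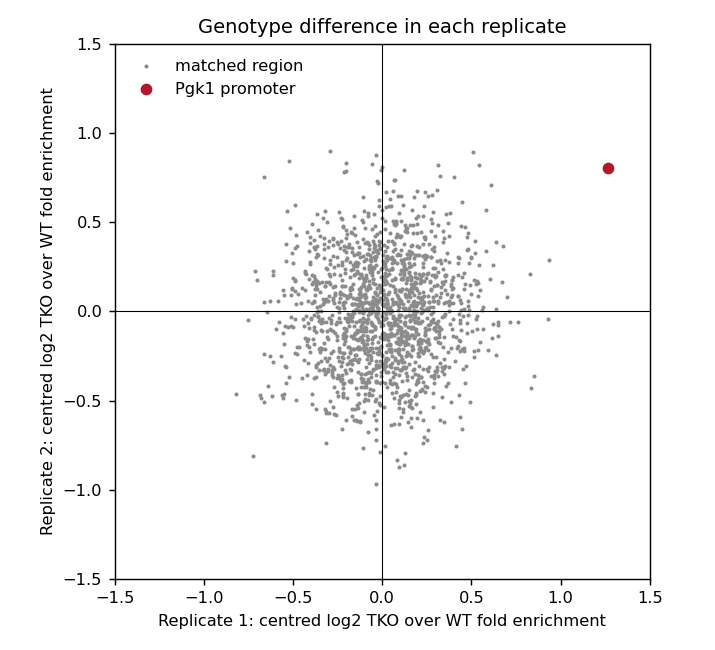
Each grey point is 1 of the 1610 matched regions, placed by its centred log2 TKO over WT fold enrichment in replicate 1 (horizontal axis) and in replicate 2 (vertical axis). The cloud shows no tilt (r = 0.06), and the Pgk1 promoter, in red, stands at 1.27 and 0.81.

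The promoter of Pgk1, which encodes the glycolytic enzyme phosphoglycerate kinase, stood apart. Its fold enrichment was 10.5 and 9.87 in TKO replicates 1 and 2 and 4.47 and 5.28 in WT. Both TKO libraries were far above both WT libraries, by 2.35 times in replicate 1 and 1.87 times in replicate 2. The centred log2 difference was 1.04 with a standard error of 0.23. It did not pass over all regions (limma, adjusted p = 0.50), and did with peaks of -log10 q of at least 5 alone (limma, adjusted p = 0.040). The other alternatives without a term for the replicate number gave an adjusted p between 0.084 and 0.999 (limma). A fit with such a term is given in the closing section on processing. In TKO replicate 1 the peak ranked 2 of 24937 by fold enrichment and in TKO replicate 2 it ranked 7 of 6010. In WT it ranked 4682 of 21929 and 754 of 6166. The region spans chrX:106186687-106187398, and its median summit lay 168 bp upstream of the start. Each library had 1 peak in the gene and the 1 kb before it. In the authors' deposited table of chromatin-enriched RNA, a bidirectional transcript named for Pgk1 lay within the region (106186728 to 106187234), and its log2 ratio (TKO over WT) was 6.85. The direction of that table is not stated, and was set so that transcripts of H1 genes are lower in TKO. As background, the Pgk1 promoter is a common driver of selection genes in targeting vectors. Whether the TKO line carries such copies is not given in the labels and was not tested.

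Other regions higher in TKO differed by less. At Pcgf3, which encodes a Polycomb group RING finger protein, fold enrichment was 4.91 and 6.68 in TKO and 3.52 and 3.36 in WT. Both TKO values were above both WT values. In an intron of Sox5, a transcription factor gene of the SOX family, it was 4.43 and 5.53 in TKO and 2.97 and 3.16 in WT. At Slc41a1, a magnesium transporter gene, it was 5.07 and 5.88 against 3.92 and 3.26. At Hspbp1, which encodes a cochaperone of HSP70, it was 5.00 and 6.67 against 3.42 and 4.20. These regions were named for non-overlapping libraries after centring, and the groups do not overlap before it either. Gm45844, a predicted gene, had 7.02 and 7.30 in TKO against 5.76 and 3.86 in WT, so that the WT libraries lay far apart. An intergenic region 196185 bp downstream of the start of Dtwd2 had 7.30 and 6.69 against 3.89 and 5.12. At Klf12, which encodes a zinc finger repressor, it was 3.79 and 7.26 against 2.66 and 3.84, and the groups overlap before centring. The Klf12 peaks were narrower in TKO, with 749 and 493 bp against 1856 and 1359 bp. The log2 differences of these 7 regions ran from 0.57 to 0.70, each with an adjusted p of 0.999 (limma). Klf12 moved from 0.68 to 0.28 without TKO replicate 2 and to 1.02 without TKO replicate 1. Gm45844 moved from 0.57 to 0.22 without WT replicate 2 and to 0.92 without WT replicate 1.

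At the other end stood the masked intergenic region of chromosome X (median summit at -82301 bp from the start of H2afb1), with 6.01 and 6.36 in TKO and 10.2 and 10.4 in WT. The 2 libraries of each genotype lay close together there, and the log2 difference was -0.77 (limma, adjusted p = 0.999). Reads of a masked repeat can come from several places in the genome, and how the authors placed them is not stated. Its part in the difference was not tested. At Pcna, whose product is the sliding clamp of DNA replication, fold enrichment was 3.18 and 4.34 in TKO and 5.13 and 5.77 in WT. At Frat2, a gene of Wnt signalling, it was 3.03 and 4.13 against 4.98 and 5.34. All TKO values of both genes were below all WT values before centring, as the naming rule requires after it. Fam193a had 3.12 and 4.10 against 5.11 and 5.35, and Tmcc1, which encodes an endoplasmic reticulum membrane protein, had 3.49 and 4.42 against 5.46 and 5.72. Intergenic regions nearest to Tns4 (2.95 and 4.23 against 5.33 and 5.44) and Hils1 (3.26 and 3.65 against 5.19 and 4.56), both on chromosome 11, also had non-overlapping groups. The region nearest to Nkain1 (3.66 and 4.92 against 4.65 and 7.67) overlapped before centring. The log2 differences of the last 7 regions ran from -0.64 to -0.53 (limma, adjusted p = 0.999 for each). The region near Nkain1 moved from -0.53 to -0.22 without WT replicate 2 and to -0.83 without WT replicate 1.

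**Figure D2:**
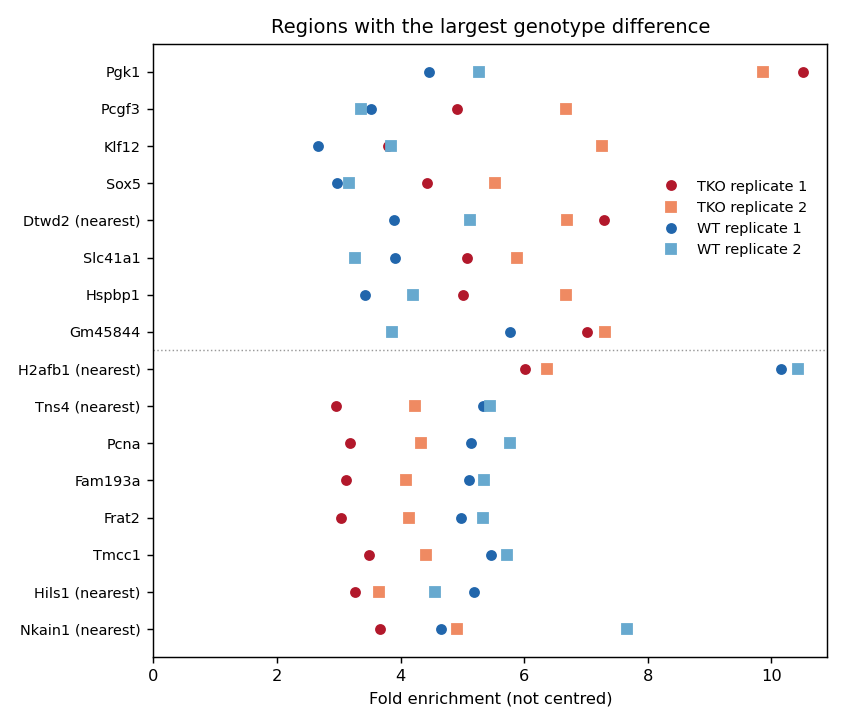
Fold enrichment (horizontal axis, not centred) in the 4 libraries at the 8 regions with the largest higher (top) and the 8 with the largest lower (bottom) centred difference in TKO, circles for replicate 1 and squares for replicate 2. Pgk1 is the region with TKO values near 10 and WT values near 5, and the H2afb1 row shows the opposite order.

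The masked region of chromosome X was also among the 5 strongest matched regions, and in 3 others of these the genotypes overlapped. In the Stau2 intron, within a gene for an RNA-binding protein of dendritic transport, fold enrichment was 7.39 and 11.1 in TKO and 6.40 and 11.3 in WT. In the Pkp4 intron, within a gene for a junction protein, it was 6.47 and 8.40 against 5.75 and 8.56. In both introns the replicate 2 libraries were higher than the replicate 1 libraries, in both genotypes. A masked intergenic region 641593 bp downstream of the start of Nr4a2 went the other way, with 9.28 and 6.41 in TKO and 7.62 and 5.76 in WT. Matched regions on chromosome 11 leaned to lower strength in TKO: 12 of 165 (7.27%) were higher and 34 (20.6%) lower in both TKO libraries, against 15.2% and 11.9% elsewhere. The median centred log2 difference on chromosome 11 was -0.08 (-0.03 in replicate 1 and -0.07 in replicate 2). Single chromosomes among the others leaned too, in either direction. On chromosome 18 23.9% of 46 regions were higher and 4.35% lower, and on chromosome 16 6.67% of 45 were higher and 15.6% lower. By centred width, 44 regions of chromosome 11 were wider and 12 narrower in both TKO libraries, against 187 and 207 of 1445 elsewhere. Chromosome 11 held a larger share of peaks in TKO (8.54% and 10.9%) than in WT (6.62% and 6.20%), and the part of this share in the lower strength was not tested.

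Peaks were narrower in replicate 2 than in replicate 1, in both genotypes. The median width of all peaks was 443 and 229 bp in TKO replicates 1 and 2 and 467 and 300 bp in WT. In matched regions it was 697 and 299 bp in TKO and 755 and 384 bp in WT. In both replicates the TKO library had the smaller median. The log2 TKO over WT difference of matched medians was -0.24 (exact permutation test, p = 0.67), made up of -0.12 in replicate 1 and -0.36 in replicate 2, whereas replicates differed by 1.22 in TKO and 0.98 in WT. Without TKO replicate 2 the difference turned to 0.44, and without WT replicate 1 to 0.23. Each list had a sharp lower edge. The narrowest peak was 292 and 172 bp in TKO and 315 and 239 bp in WT. Exactly that width was found in 7.67% and 14.3% of deposited TKO peaks and in 7.29% and 15.9% of WT peaks. The edge was lowest in TKO replicate 2, the library with the smallest median, and its part in the width difference was not tested.

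**Figure D3:**
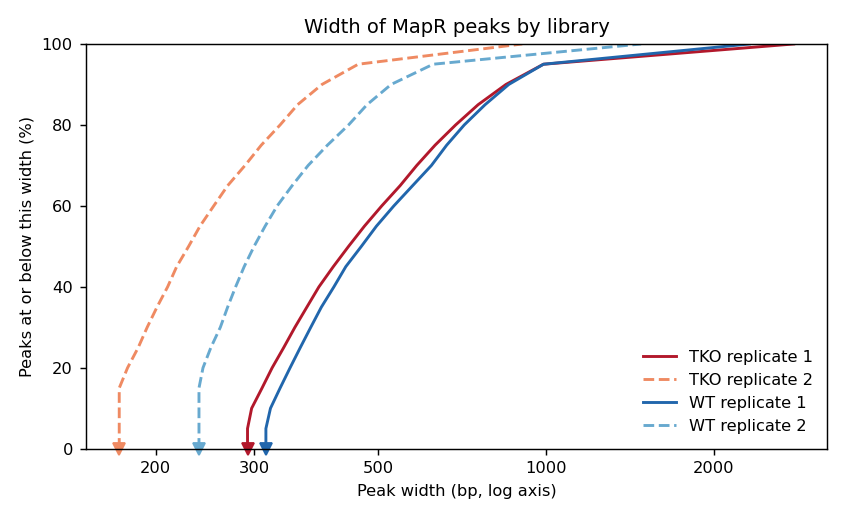
Share of peaks (vertical axis) at or below a given width (horizontal log axis), 1 line per library outside the controls, with a triangle at the narrowest peak. Replicate 2 lines (dashed) lie left of the replicate 1 lines, and the lower edges run from 172 to 315 bp.

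No matched region passed for width either (limma, 0 higher and 0 lower, 0% of 1610 regions). At an unadjusted p under 0.05, 13 were wider (0.807%) and 27 narrower (1.68%). Both TKO peaks were relatively wider than both WT peaks in 231 regions (14.3%) and narrower in 219 (13.6%), after centring. These counts too are a description and not calls. By the strongest peak per library in a region, the largest narrowing was at Dyrk1b, a kinase gene, with 366 and 175 bp in TKO and 1015 and 910 bp in WT. At Mbd5, a gene of the methyl-CpG-binding domain family, widths were 465 and 172 bp against 1184 and 825 bp, and at Btbd7 420 and 172 bp against 1409 and 604 bp. The width of 172 bp is the lower edge of TKO replicate 2. At Vim, which encodes the intermediate filament vimentin, widths were 341 and 189 bp in TKO and 1313 and 510 bp in WT, and at Garnl3 344 and 363 bp against 1255 and 984 bp. These 5 regions were named for non-overlapping widths after centring, and both TKO widths lay below both WT widths before centring as well. With the widths of all peaks of a library in a region summed, the log2 differences at Dyrk1b and Garnl3 shrank from -1.69 to -0.71 and from -1.41 to -0.40, while those at Vim (-1.5), Btbd7 (-1.38) and Mbd5 (-1.19) moved less. Garnl3 also moved to -0.79 without TKO replicate 1 and to -2.13 without TKO replicate 2. Fold enrichment at Btbd7 was 4.40 and 5.05 in TKO and 3.63 and 3.87 in WT, both TKO values higher. It overlapped at Vim (3.08 and 6.08 against 4.46 and 4.99), Mbd5 (5.39 and 3.65 against 5.15 and 6.24), Dyrk1b (3.63 and 4.43 against 3.46 and 4.40) and Garnl3 (3.57 and 4.58 against 3.18 and 5.47).

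The largest relative widening, by the same measure, was at Ccm2, which encodes a scaffold protein of endothelial junctions, with 1076 and 432 bp in TKO and 315 and 346 bp in WT. At Nop14, a ribosome biogenesis gene, widths were 1108 and 329 bp against 403 and 240 bp, which overlap before centring. At Rpain they were 842 and 373 bp against 317 and 289 bp. Intergenic peaks nearest to Arhgef26 measured 930 and 457 bp against 352 and 353 bp. In an exon of the mucin gene Muc6 they measured 1321 and 284 bp against 386 and 296 bp, and these overlap before centring too. The log2 differences ran from 1.10 to 1.28 for these 5 regions and from -1.69 to -1.41 for the 5 narrower ones, and the smallest adjusted p of the fit was 0.996 (limma). With widths summed, Ccm2 fell from 1.28 to 0.47, Nop14 from 1.20 to 0.59 and the region near Arhgef26 from 1.13 to 0.42, while Rpain (1.08) and Muc6 (1.05) moved less. Without WT replicate 1 the differences at Ccm2, Rpain and near Arhgef26 were 0.75, 0.72 and 0.65, and without TKO replicate 1 that at Ccm2 was 0.74.

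Over the full lists, the median summit at promoters lay downstream of the start in replicate 1 and upstream of it in replicate 2. Among promoter summits, those within 1 kb of the nearest coding start, the median offset was 44.0 bp in TKO replicate 1 and 28 bp in WT replicate 1. It was -66.0 bp in TKO replicate 2 and -29.5 bp in WT replicate 2. The share downstream of the start was 61.4% and 33.7% in TKO and 57.0% and 44.2% in WT. TKO was thus the more downstream library in replicate 1 and the more upstream one in replicate 2. The difference of the mean shares was -3.08 percentage points (exact permutation test, p = 1), and it turned to 10.8 without TKO replicate 2 and 3.35 without WT replicate 1. The same order of libraries held within the 1155 matched promoter regions, where the median offsets were 2.00 and -106 bp in TKO and -14.0 and -69.0 bp in WT (exact permutation test, p = 1). There the median of WT replicate 1 was upstream of the start as well.

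**Figure D4:**
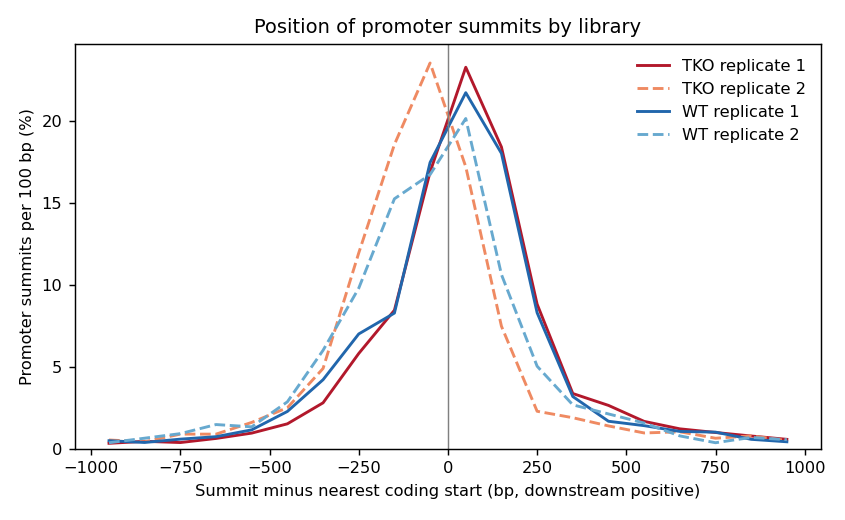
Share of promoter summits per 100 bp (vertical axis) by distance from the nearest coding start (horizontal axis, downstream positive), 1 line per library. The replicate 1 lines (solid) peak just downstream of the start, and TKO replicate 2 peaks upstream of it, with median offsets from -66.0 to 44.0 bp.

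Base composition at the summits moved with the replicate as well. The median G+C content in 300 bases was 62.0% and 57.3% in TKO and 61.0% and 58.3% in WT, a mean of 59.7% in each genotype (difference 0, exact permutation test, p = 1). The median GC skew on the coding strand of promoter summits, (G-C)/(G+C), was 0.046 and 0.030 in TKO and 0.044 and 0.039 in WT (exact permutation test, p = 1). It was above 0 for 63.0% and 56.8% of promoter summits in TKO and 61.7% and 59.3% in WT. More G than C on the coding strand was therefore the majority state in all 4 libraries. Across matched regions the correlation of fold enrichment with G+C content was 0.22 and 0.14 in TKO and WT replicate 1, and -0.05 and -0.03 in replicate 2. Regions share libraries and mappability, so these are descriptions.

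By Pearson's r and by summit distance, libraries with the same replicate number were more alike than libraries of the same genotype. Pearson's r of log2 fold enrichment across the 1610 regions was 0.67 between the replicate 1 libraries of the 2 genotypes and 0.37 between the replicate 2 libraries. It was 0.30 between the TKO replicates and 0.34 between the WT replicates. Spearman's rho was 0.64 for the replicate 1 pair, but 0.296 for the replicate 2 pair against 0.301 for the WT replicates and 0.25 for the TKO replicates. For width r was 0.51 and 0.25 for the same number, and 0.08 and 0.21 for the same genotype. The median distance between summits followed the same order, with 76.5 and 97 bp for the same number and 158 and 114 bp for the same genotype. On average summits were 23.0 bp nearer across genotypes than within them. On the full lists, all 11 measures compared between genotypes by exact permutation tests differed more between replicates of each genotype than between genotypes. In 7 of them TKO and WT stood in opposite order in the 2 replicates. None reached the smallest p of 0.33, and the Benjamini-Hochberg adjusted p was 1 for each (exact permutation tests).

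**Figure D5:**
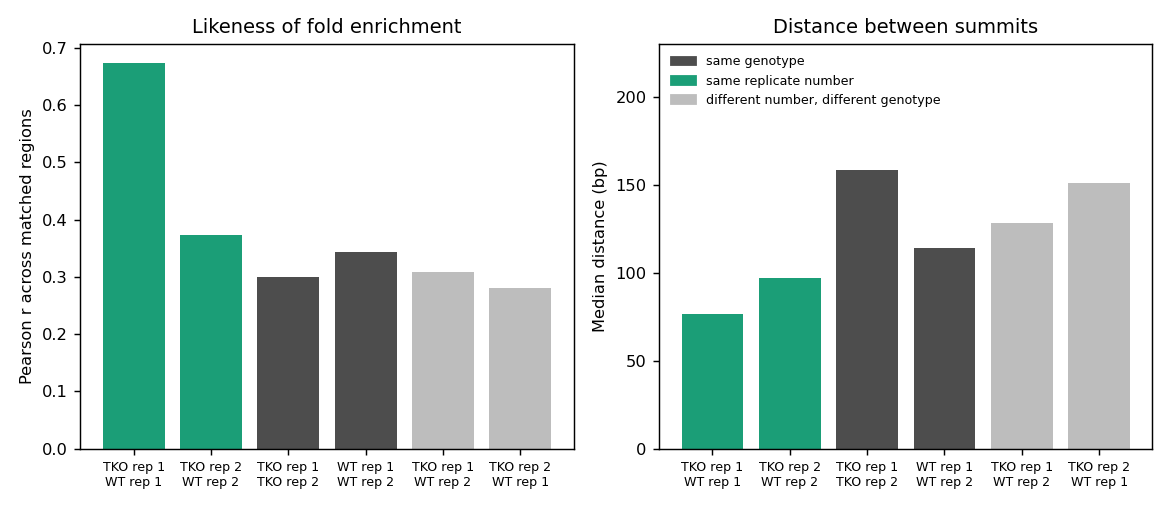
Pearson's r of log2 fold enrichment (left) and median distance between summits in bp (right) for the 6 pairs of libraries over 1610 matched regions. The 2 pairs with the same replicate number (green) have the highest r, 0.67 and 0.37, and the shortest distances, 76.5 and 97 bp.

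Promoter peaks covered 10716 and 3050 of 21829 coding genes in TKO (49.1% and 14%) and 9601 and 2389 in WT (44.0% and 10.9%). In each replicate TKO covered more genes, but the log2 difference of 0.26 was small beside replicate differences of 1.81 and 2.01 (exact permutation test, p = 0.67). It turned to -0.65 without TKO replicate 1 and to -0.75 without WT replicate 2. Both TKO libraries covered 2788 genes (12.8%), both WT libraries 2242 (10.3%) and all 4 libraries 1385 (6.34%). Both replicate 1 libraries and neither replicate 2 library covered 5056.

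Genes covered in both TKO libraries and neither WT library numbered 118 (0.541%), and those with the opposite pattern 73 (0.334%). With peaks of -log10 q of at least 5 alone the counts were 69 and 73. The order of the counts also turned without TKO replicate 1 (209 and 802) and without WT replicate 2 (144 and 1024). Without TKO replicate 2 they were 2204 and 128, and without WT replicate 1 1377 and 114. With a library left out, the condition for its genotype rests on a single list. Replicate 1 lists are much longer than replicate 2 lists, so these counts cannot show how stable the genotype pattern is. Of the 118 genes 14 (11.9%) lie on chromosome 11, and of the 73 genes 0, while chromosome 11 holds 7.49% of all coding genes. Of the covered genes it holds 8.84% and 11% in TKO and 8.03% and 8.25% in WT. The strongest TKO-only gene was Exosc2, a subunit of the RNA exosome, with a fold enrichment of 5.22 in replicate 1 and 5.38 in replicate 2. It was followed by Haus6, of the augmin complex of the spindle, with 4.99 and 5.25, the propionyl-CoA carboxylase gene Pcca with 6.24 and 4.90, the synaptophysin gene Syp with 4.81 and 5.28, and Ndfip2 with 4.91 and 4.77. These 5 genes were picked for the highest smaller value of the 2 libraries, and their values are above the medians of all peaks there (3.80 and 4.63). Over all 118 genes the median of the smaller value was 3.50, and over the 73 WT-only genes it was 3.38. The strongest WT-only gene was Rps6ka6, a kinase of the RSK family, with 5.77 and 5.72. Rab11fip5, a Rab11 effector gene, had 5.14 and 4.97, and the mitochondrial carbonic anhydrase gene Car5b 4.85 and 4.99. Acad11, an acyl-CoA dehydrogenase gene, had 4.79 and 4.31, from WT peaks that do not overlap each other. A gene counts as covered by any peak within 1 kb of a start, so peaks of different libraries need not overlap. Absence of a peak from a list does not show absence of signal, since a region may fall short of the caller's threshold.

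Gene groups were read by the number of members with a peak within 1 kb of a start, in the order TKO replicates 1 and 2 and WT replicates 1 and 2. In that order 49.1%, 14%, 44.0% and 10.9% of all coding genes were covered, and a group near these shares does not stand apart. Core histone genes, which are short, clustered and strongly transcribed in S phase, were covered in 35, 11, 31 and 9 of 37 cases. This is 94.6% and 83.8% in replicate 1 and 29.7% and 24.3% in replicate 2. Hist1h4h had a fold enrichment of 4.27 and 4.11 in TKO and 4.24 and 4.35 in WT, values that overlap. Hist1h4b had 3.63 and 4.00 against 3.77 and 4.41, Hist2h3c2 3.63 and 4.08 against 3.43 and 4.29, and Hist2h2aa1 3.47 and 4.20 against 3.78 and 3.49. The groups overlap at each of these 4 histone genes, before centring. The pair Hist1h2ad and Hist1h2bf was covered in both TKO libraries and neither WT library (3.62 and 5.04), by TKO peaks that do not overlap each other. Genes that write, read or remove methylated adenosine in RNA (m6A) were covered in 23, 6, 21 and 6 of 23 cases. At Hnrnpc, an RNA-binding protein gene of that list, values were 4.07 and 4.45 in TKO and 3.34 and 5.34 in WT, and at Hnrnpa2b1, another such gene, 3.63 and 4.81 against 3.66 and 4.98. Both overlap. Housekeeping genes were covered in 15, 10, 13 and 12 of 20 cases (75.0%, 50.0%, 65.0% and 60.0%). Beside Pgk1, the pyruvate kinase gene Pkm had 4.23 and 4.25 in TKO and 3.51 and 4.15 in WT, and the chaperone gene Hspa8 3.84 and 4.05 against 3.38 and 4.35. The groups overlap at Hspa8, while at Pkm both TKO values were above both WT values before centring. Genes that host snoRNAs and small nuclear RNA genes were covered in 13, 6, 13 and 6 of 18. At the shared promoter of Rpph1, the RNA of RNase P, values were 5.04 and 7.62 in TKO and 5.49 and 9.55 in WT. At Rmrp, the RNA of RNase MRP, they were 4.69 and 4.30 against 5.14 and 5.69, with both TKO values lower. Rnu1b1 and Rnu2-10, genes of spliceosomal RNAs, had 4.60 and 5.66 against 4.95 and 4.69, and 4.24 and 5.81 against 4.56 and 4.91. Both overlap.

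Genes that process R-loops were covered in 17, 5, 15 and 4 of 23 cases. At Ddx5, an RNA helicase gene, values were 3.71 and 5.08 in TKO and 3.66 and 7.38 in WT, and at the splicing factor gene Srsf1 3.85 and 3.74 against 4.44 and 4.40. The groups overlap at Ddx5, while at Srsf1 both TKO values were below both WT values. Ribosomal protein genes were covered in 37, 5, 32 and 9 of 76 cases. The shares in replicate 1 (48.7% and 42.1%) were near those of all coding genes, and that in TKO replicate 2 (6.58%) was below the 14% of all coding genes. Rpl41 had 3.93 and 3.74 in TKO and 2.96 and 3.34 in WT, in a promoter region shared with Zc3h10. Rpl10 had 4.53 and 5.91 against 4.56 and 5.57. The region of Rps25 and Trappc4 had 4.24 and 5.01 against 3.56 and 4.60, and that of Rps18 and B3galt4 3.49 and 4.25 against 3.31 and 3.81. Of these 4 regions, that of Rpl41 alone had TKO values above both WT values before centring, and after centring those of Rps25 and Rps18 did as well. Rpl14 was covered in both TKO libraries alone (3.05 and 4.87), and Rpl39 (3.51 and 6.15) and Rps19 (3.66 and 4.17) in both WT libraries alone. Immediate early genes were covered in 16, 5, 14 and 8 of 23 cases. Dusp1, a phosphatase gene of that group, had 3.44 and 3.52 against 3.84 and 4.68, with both TKO values lower. The transcription factor gene Egr1 had 2.92 and 4.97 against 3.47 and 6.16, and Dusp6 3.41 and 3.82 against 2.94 and 3.84, and both overlap. Jun was covered in both TKO libraries alone (2.51 and 4.25), by peaks that do not overlap each other.

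Pluripotency genes were covered in 14, 3, 18 and 3 of 29 cases (48.3%, 10.3%, 62.1% and 10.3%, against 49.1%, 14%, 44.0% and 10.9% of all coding genes). Stat3, the effector of leukaemia inhibitory factor, had the matched region of this group (3.78 and 4.59 in TKO, 4.10 and 4.86 in WT). Of 10 embryonic stem cell markers 5, 1, 7 and 1 were covered. Endoderm markers were covered in 3, 0, 4 and 1 of 7 cases, and mesoderm markers in 3, 0, 1 and 0 of 5. Neuroectoderm markers were covered in 3, 2, 3 and 1 of 5 cases, and fibroblast markers, Vim among them, in 3, 1, 3 and 1 of 5. A MapR peak is not a measure of expression, and these counts do not check the cell type. Developmental transcription factor genes were covered in 18, 4, 21 and 4 of 50 cases, germline genes in 15, 2, 12 and 1 of 23, nuclear long non-coding RNA genes in 9, 3, 6 and 3 of 24, and imprinted genes in 15, 4, 14 and 6 of 32. For developmental genes the shares were 36.0%, 8.00%, 42.0% and 8.00%, below those of all coding genes in each library. For imprinted genes they were 46.9%, 12.5%, 43.8% and 18.8%, for germline genes 65.2%, 8.70%, 52.2% and 4.35%, and for long non-coding RNA genes 37.5%, 12.5%, 25.0% and 12.5%. The divergent imprinted pair Peg10 and Sgce was covered in both WT libraries (3.48 and 5.2) and neither TKO library. The WT peaks there do not overlap each other. Ube3a, an imprinted ubiquitin ligase gene, had 6.18 and 5.22 in TKO and 7.03 and 4.04 in WT. The germline gene Stra8 had 3.30 and 3.99 against 3.41 and 3.37. The long non-coding RNA genes Tug1 (region shared with Morc2a) and Gas5 (shared with Zbtb37) had 4.76 and 3.70 against 4.36 and 4.93, and 3.47 and 4.09 against 2.45 and 4.09. At all 4 of these genes the groups overlap. H1 genes were covered in 4, 1, 5 and 1 of 9 cases. Hist1h1c, Hist1h1d and Hist1h1e are, as background, the genes deleted in the widely used H1 triple-knockout stem cell line. Within 1 kb of them TKO libraries had peaks of 3.15 (Hist1h1c) and 4.54 (Hist1h1e) in replicate 1 and 5.08 (Hist1h1d) in replicate 2. WT libraries had peaks at 3 of the genes in replicate 1 and at Hist1h1c in replicate 2. Which stretches were removed is not known here, so these peaks do not check the genotype.

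Matched regions were set beside the authors' deposited table of changed chromatin-enriched RNA. Of all 1610 regions 170 (10.6%) lay over a listed transcript on either strand, 100 (6.21%) over one higher in TKO and 70 (4.35%) over one lower. Of the 231 regions with both TKO libraries above both WT libraries after centring, 8 (3.46%) lay over a higher transcript and 16 (6.93%) over a lower one. Of the 206 with both TKO libraries below both, 21 (10.2%) lay over a higher transcript and 9 (4.37%) over a lower one. Among the 1173 regions with overlapping groups the shares were 6.05% and 3.84%. No region of these sets passed limma in the main fit. These shares are a description with no test. They rest on the direction set for that table from the H1 genes, and with the opposite direction higher and lower transcripts change places. Among the regions named for strength or width, the listed transcripts were the bidirectional one of Pgk1, those at Klf12 (log2 TKO over WT -2.99 and -2.96), the one that meets the Gm45844 region (-1.38) and that of Vim (2.25).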

How the data were processed

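MapR peaks were measured in 2 RNH libraries per genotype, with 1 nuclease-only control each. Per the submitters' processing notes, BWA and MACS2 were used with build mm10. Versions, options and the control used in peak calling are not stated in the labels. Deposited by the authors was 1 peak list per library in the narrowPeak layout, with fold enrichment (a ratio), -log10 p and -log10 q, and a score that follows the q-value. The authors' deposited table of chromatin-enriched RNA holds log2 fold changes. Lists hold no reads, so depth is unknown and no counting interval is given.

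Peaks overlapping by 1 bp were merged across libraries, and peaks or merged regions that met a control peak were left out. In each matched region the peak with the highest fold enrichment stood for its library. Starts came from GENCODE release M21, sequences from the RefSeq assembly of GRCm38, which is mm10. Library medians were compared with exact permutation tests (two-sided), regions by limma 3.58.1 on centred log2 values with Benjamini-Hochberg adjustment at 0.05. Steps were tested on simulated data. Named regions were the 5 with the highest mean fold enrichment, and those with non-overlapping libraries after centring and the largest differences, 8 per direction for fold enrichment and 5 for width. Also named were the 5 strongest genotype-only genes per direction and up to 4 members per list with a matched region, by mean fold enrichment. Genotype-only members of the lists were chosen after their values were seen. So were further values of Pgk1, Klf12, Btbd7, Vim, the H1 genes and chromosomes 11, 16 and 18. Some regions and genes that this rule names are not reported here. Members and lists were chosen with earlier results of these data known. Alternatives were lists limited to a -log10 q of 5 or more, lists of equal length, control peaks kept, another overlap (50% of the shorter peak), several peaks summed, quantile or no centring, a limma trend, a replicate block, leaving out each library, chromosome 11 or chromosome 14 from 90 to 100 Mb, gene bodies, 500 bp from the start, and 100-base windows.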

Additional observations from a re-analysis of the deposited data

How the results depend on the processing

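Of 152 recomputed values for 14 results, 112 kept their direction, or their count within 1.5 times. Another 10, of G+C content, had no direction to keep, because the main difference was 0. Counts moved by over 1.5 times in 17 cases, and 13 differences reversed. The exact permutation tests cannot give a p below 0.33 with these libraries, so their side of a 0.05 threshold was fixed and was not compared. All 13 reversals came from leaving out 1 library, and the cause was not tested beyond the smaller number of libraries. Leave-one-out ranges were -0.71 to 0.24 for the log2 width difference of all peaks (0.24 without TKO replicate 2, 0.09 without WT replicate 1) and -0.83 to 0.44 in matched regions (0.44 and 0.23). For log2 fold enrichment they were -0.073 to 0.21 over all peaks (-0.073 without TKO replicate 2, -0.030 without WT replicate 1) and -0.035 to 0.16 in matched regions (-0.035 and -0.024). Summits downstream of the start ranged from -16.9 to 10.8 percentage points (10.8 and 3.35 for the same libraries). GC skew ranged from -0.012 to 0.0047 (0.0047 without TKO replicate 2), G+C content from -2.33 to 2.33 points, and the log2 number of covered genes from -0.75 to 1.26 (-0.65 without TKO replicate 1, -0.75 without WT replicate 2). Matched regions numbered 1657 to 3250 over 3 libraries (2963 without TKO replicate 2, 3250 without WT replicate 2), 457 with a -log10 q of at least 5 and 770 with equal list lengths. TKO-only genes numbered 144 to 2204 when a library was left out, 69 with the stricter threshold and 202 with equal lengths (209, 2204 and 1377 without TKO replicate 1, TKO replicate 2 and WT replicate 1). WT-only genes numbered 73, 166, 802, 128 and 114 under the same 5 settings (stricter threshold, equal lengths, and those 3 libraries), and 1024 against 144 TKO-only genes without WT replicate 2, so that the order of the 2 counts turned with the stricter threshold and without TKO replicate 1 or WT replicate 2. Regions higher in TKO numbered 529 to 1018 when a library was left out (576, 954, 529 and 1018 without TKO replicates 1 and 2 and WT replicates 1 and 2), 72 with the stricter threshold and 91 with equal lengths. Changed regions numbered 0 to 0 for fold enrichment and for width in the leave-one-out fits. For fold enrichment 1 region, Pgk1, passed limma with the stricter threshold (1 of 457 regions).

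With the replicate block the count for fold enrichment was 1 (Pgk1, limma, adjusted p = 0.00019) and for width 0 (limma, smallest adjusted p = 0.095). Libraries with the same number deviated from their genotype means together (r = 0.38 for fold enrichment, 0.32 for width). There are only 2 such pairs, and the labels give no shared source, so what libraries of the same number have in common is not known. Of 333 recomputed differences of the 26 named regions, 331 kept their direction and side of the threshold, and the other 2 were the Pgk1 calls above. These regions were named for non-overlapping libraries and large differences, so their direction could hardly turn and its stability is no support. Sizes moved by over 1.5 times at Klf12, Gm45844, Nkain1, Ccm2, Nop14, Rpain, Arhgef26, Dyrk1b and Garnl3, with the values given beside them in the report. An overlap of 50% of the shorter peak gave 0.83 at Ccm2 and -0.92 at Garnl3. Depth is unknown, so signal below the caller's threshold in the short lists could not be measured.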
